A study of Drosophila melanogaster with 4 samples.

Results

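The gene msl-2 encodes MSL2, the RING-finger subunit that is made in males and allows the dosage compensation complex to assemble on the male X chromosome of Drosophila, where the complex raises transcription. In females the RNA-binding protein Sex-lethal (Sxl) keeps msl-2 silent. It binds uridine-rich runs in both untranslated regions (UTRs) of the transcript, causes the intron in the 5' UTR to be retained, and blocks translation together with the corepressor Unr. Sister of Sex-lethal (Ssx) is the paralog of Sxl, and the question put to these data was whether RNA of msl-2 was recovered with Ssx in male cells. All rows named msl-2 in the authors' 4 deposited tables were taken, which gave 5 intervals of 17175 listed, and each was set against autosomal intervals of similar mean in the same table, since msl-2 itself lies on chromosome arm 2L.

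The assay was individual-nucleotide resolution crosslinking and immunoprecipitation (iCLIP), which sequences RNA fragments that ultraviolet light has linked to a protein. The Ssx IP group held 2 libraries made with a polyclonal rabbit antibody against Ssx, and the control IgG IP group held 2 libraries made with rabbit IgG. Both groups came from SL2 cells, a male embryonic cell line, with no other treatment named. Nothing in the labels tells whether 2 libraries of the same antibody were prepared from different cultures, and the p-values then cover only the spread between libraries, possibly a technical one. The authors deposited statistics for the 2 groups and no column of a single library. Positive log2 fold changes were taken to mean more signal in the Ssx IP. This direction is likely, though the tables do not state it, and with the opposite direction every sign below would turn. Coverage was low, with a median of 3 whole reads per interval in 5' UTRs and in coding sequence (CDS) and of 5 in introns and 3' UTRs, among intervals with a mean of up to 12 normalized reads. Every such interval held at least 2 reads.

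The 5 intervals lie on the minus strand and follow the build dm6, named in the submitters' processing notes. The RefSeq annotation of Release 6 places the gene at chr2L:3462218-3466112, a span of 3895 bases, and the outer ends of the listed intervals coincide with it. The longer 5' UTR interval (chr2L:3465640-3466112, 473 bases) starts at the 5' end of the gene and contains the intron. The intron interval (chr2L:3465919-3466051, 133 bases) begins 61 bases into it. The shorter 5' UTR interval (chr2L:3465640-3465918, 279 bases) is the stretch between that intron and the start of the CDS interval. The CDS interval (chr2L:3463707-3465639, 1933 bases) and the 3' UTR interval (chr2L:3462218-3463265, 1048 bases) are separated by 441 bases that no listed msl-2 interval covers. The gene mir-4971 (chr2L:3463290-3463400) is annotated inside that stretch, and no interval of another gene in the 4 tables overlaps msl-2. The shorter 5' UTR interval and the intron both lie within the longer 5' UTR interval, so these 3 intervals are not independent observations.

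**Figure D1:**
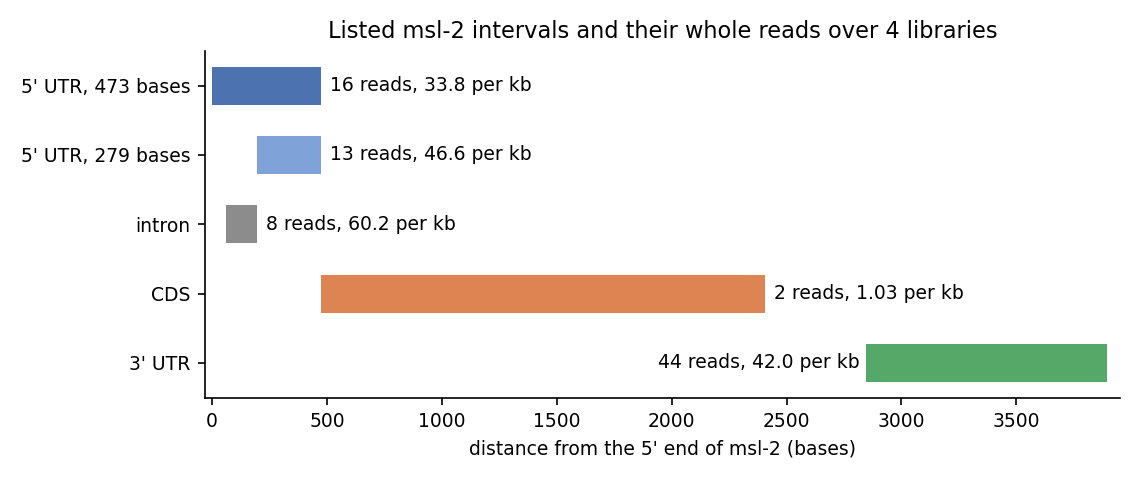
Map of the 5 listed msl-2 intervals by distance in bases from the 5' end of the gene, with the whole reads over 4 libraries and the reads per kb beside each bar. The 3' UTR holds 44 reads in 1048 bases, while the longest interval, the CDS, holds 2.

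The 3' UTR was where msl-2 was recovered with the most reads and the largest fold change, although each table was scaled separately. Its mean was 5.98 normalized reads in the authors' deposited table, and this mean resolved into 44 whole reads. By library these were 21, 23, 0 and 0 reads, or 10.1, 13.9, 0 and 0 normalized reads. The files do not name the 4 libraries solved in this way, and none was assigned to the Ssx IP or to the control IgG IP. A pair of libraries thus carried all reads and the other pair none. The libraries without reads had the smaller size factors, 0.760 and 0.473 against 2.09 and 1.66, and a count of 0 in them allows up to 3 reads, or 3.95 and 6.34 normalized reads. Both limits lie below the 10.1 and 13.9 normalized reads seen in the libraries with signal. This takes the counting error of the zeros only. The 21 reads of the first library have a lower 95% counting bound of 13.0 reads, which at its size factor of 2.09 does not exceed the higher limit.

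**Figure D2:**
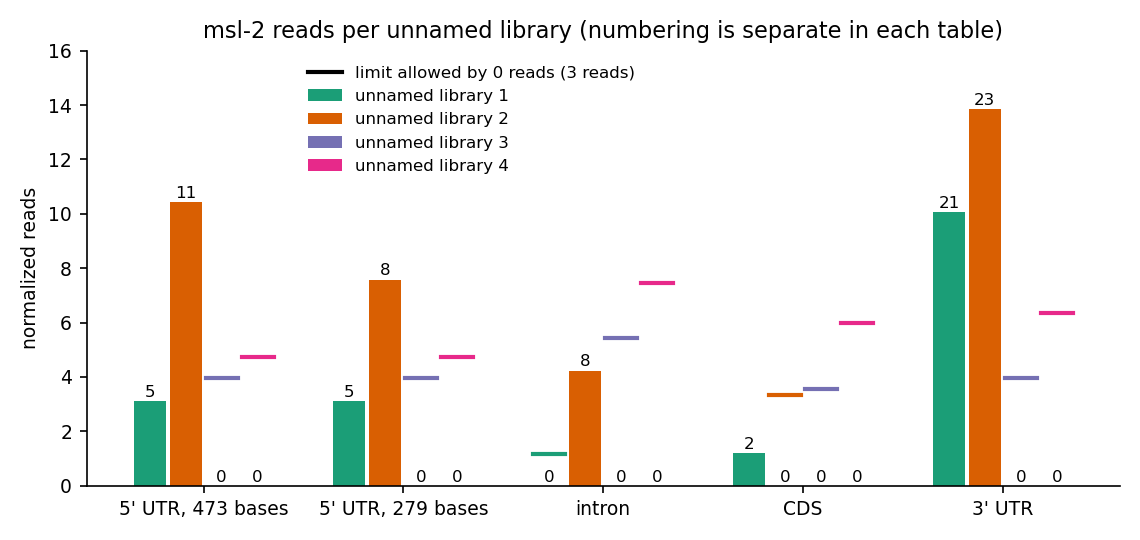
Normalized reads of each msl-2 interval in the 4 unnamed libraries, with whole reads printed above the bars and, for libraries at 0, a line at the level that 3 reads would give. Bars of 10.1 and 13.9 in the 3' UTR exceed both lines beside them, whereas the intron's 4.24 does not exceed the lines of libraries 3 and 4.

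In the authors' deposited table the msl-2 3' UTR had a log2 fold change of 3.95 ± 1.56 (SE), with a 95% interval of 0.903 to 7.002 and an unadjusted DESeq2 p of 0.0111. Its cell for the adjusted p is empty. The lowest mean with an adjusted p in that table was 7.36 normalized reads, above the 5.98 of msl-2. Intervals of similar p and higher mean did have one in the authors' deposited table, at 0.0305 for an interval of mspo (unadjusted DESeq2 p = 0.00948) and 0.0374 for Fim (unadjusted DESeq2 p = 0.0118). When the deposited p-values of all 4299 listed 3' UTR intervals were adjusted together by the Benjamini-Hochberg method, the DESeq2 p of msl-2 became 0.547. The 3' UTR is therefore not a call at an adjusted p of 0.05. Among the 3' UTR intervals of all chromosomes with a deposited adjusted p, 33.2% were called higher in the Ssx IP. Of all autosomal 3' UTR intervals, whatever their mean, 1.38% had a positive fold change with an unadjusted p under 0.05. These shares differ in chromosomes, means and threshold and are not set against each other.

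Against autosomal 3' UTRs of similar mean, msl-2 ranked second. The comparison held 243 intervals of 169 genes with means of 4.01 to 8.96 normalized reads. The log2 fold change of msl-2 was 3.95, and those of the 243 intervals ran from -2.79 to 4.44 with a median of 0.11 in the authors' deposited table. In the same table a lower value than that of msl-2 was found in 242 of them (99.6%) and a higher one in 1, an interval of mspo, which encodes a secreted spondin-family protein (4.44 ± 1.52). The DESeq2 adjusted p of mspo is 0.0153 in the authors' deposited table, and its p became 0.240 when all listed 3' UTR intervals were adjusted together. The distance of msl-2 from the median, 3.84, is larger than its standard error of 1.56. PGRP-SD, which encodes a peptidoglycan recognition protein, followed at 3.90 ± 1.56 and CG7650 at 3.77 ± 1.58 in the authors' deposited table. The PGRP-SD interval overlaps an intron of CG32373 on the same strand. The gaps from msl-2 to these 3 intervals are smaller than their standard errors, so the order among the 4 is not settled.

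Of the 243 intervals, 53.1% had a positive fold change, near the 52.4% of all autosomal 3' UTR intervals, and 17 had a positive fold change with an unadjusted DESeq2 p under 0.05 (6.996%). Reads in the same 2 libraries as in msl-2 and in no other were found in 13 of the 243 intervals (5.35%), whose log2 fold changes ran from 3.35 to 4.44 in the authors' deposited table, while 157 held reads in all 4 libraries. The remaining 230 intervals had values of -2.79 to 3.43. The fold change of msl-2 thus stands at the upper edge that intervals with such a split reach at this mean, and the fold and the split are the same reads seen in different ways. Over all 3198 other autosomal 3' UTR intervals, whatever their mean, 7 of 6 genes had a larger log2 fold change than msl-2 (0.219%). Set against 156 X-linked 3' UTR intervals of similar mean in place of autosomal ones, msl-2 exceeded 147 (94.2%).

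**Figure D3:**
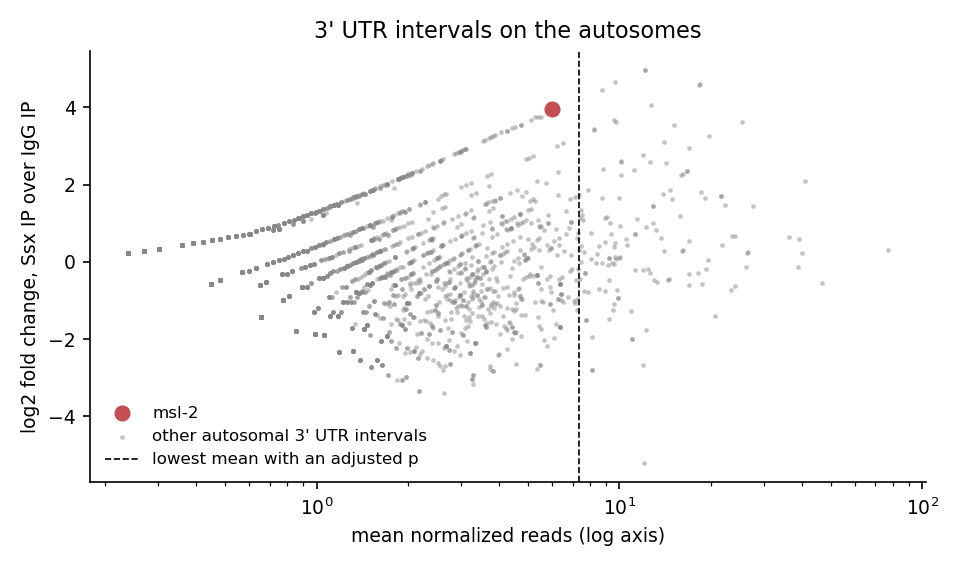
Log2 fold change of every autosomal 3' UTR interval against its mean normalized reads (log axis), with msl-2 in red and a dashed line at 7.36, the lowest mean that has an adjusted p. At 5.98 and 3.95 msl-2 sits on the upper edge of the cloud, left of the line.

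The 5' UTR intervals of msl-2 were recovered with fewer reads and ranked lower among intervals of similar mean than the 3' UTR did. The longer one held 16 whole reads, split 5, 11, 0 and 0 over the 4 unnamed libraries, or 3.10, 10.4, 0 and 0 normalized reads. The shorter one held 13, split 5, 8, 0 and 0, or 3.10, 7.58, 0 and 0 normalized reads. Again a pair of libraries carried all reads, but a count of 0 allows up to 3.95 and 4.74 normalized reads in the empty ones, which is above the 3.10 of the first library. In the longer interval the split is therefore resolved for 1 of the 2 libraries with reads and not for the other at this depth. In the shorter it is resolved for neither. There the 8 reads of the second library have a lower 95% counting bound of 3.45 reads, at a size factor of 1.06.

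In the authors' deposited table the longer 5' UTR interval had a log2 fold change of 3.21 ± 1.85 (SE, unadjusted DESeq2 p = 0.083), with a mean of 3.38 normalized reads. The shorter one had 2.86 ± 1.89 (SE, unadjusted DESeq2 p = 0.131) at 2.67 in the authors' deposited table. Neither was given an adjusted p, and both reached 0.902 when all 2159 listed 5' UTR intervals were adjusted together. The background in this table is itself shifted. Of all autosomal 5' UTR intervals 80.1% had a positive fold change and 1.5% were positive with an unadjusted p under 0.05. Of the 5' UTR intervals of all chromosomes with an adjusted p, 10.7% were called higher in the Ssx IP. Whatever their mean, 38 of 1596 other autosomal 5' UTR intervals had a larger log2 fold change than the longer msl-2 interval (2.38%) and 49 than the shorter (3.07%).

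Set against that shift, msl-2 lay in the upper part of its comparison. The longer interval had a log2 fold change of 3.21, against a median of 2.14 over 107 autosomal 5' UTR intervals of 74 genes, and exceeded 84 of them (78.5%). The shorter had 2.86, against a median of 1.68 over 144 intervals of 109 genes, and exceeded 121 (84.0%). Beside the longer interval, the authors' deposited table has its largest values for the ribosomal protein gene RpS3A (3.70 ± 1.79), CG31694 (3.67 ± 1.80) and CG31955 (3.67 ± 1.79). Those beside the shorter were 3.49 ± 1.81 for both listed intervals of the ribosomal protein gene RpL40 and 3.43 ± 1.82 for bic in the authors' deposited table. The distance of msl-2 from either median, 1.08 and 1.19, was smaller than its standard error. Reads in the same 2 libraries only were common here, in 45 of the 107 intervals (42.1%) and in 58 of the 144 (40.3%), against 13 of 243 in the 3' UTR table.

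**Figure D4:**
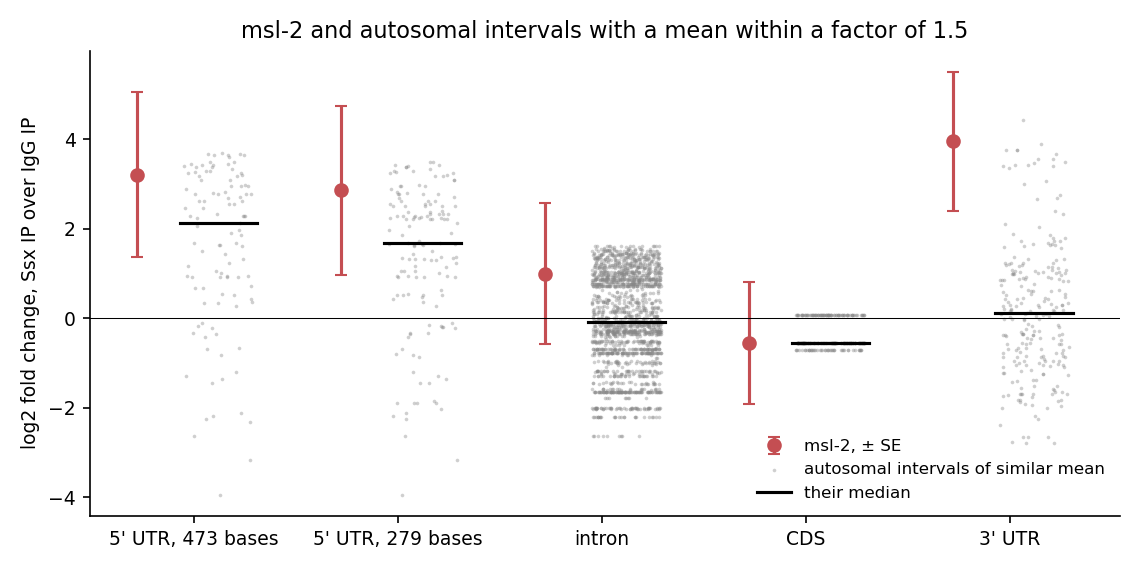
Log2 fold change of each msl-2 interval (red, ± SE) beside the autosomal intervals of the same table with a mean within a factor of 1.5 (grey points, black line at their median). The msl-2 3' UTR lies above all but 1 of its 243 points, and the CDS value lies on its median.

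The intron inside the 5' UTR, whose removal Sxl prevents in females, held 8 whole reads. All 8 came from 1 of the 4 unnamed libraries, giving 0, 4.24, 0 and 0 normalized reads. A count of 0 allows up to 5.45 and 7.46 normalized reads in the libraries of low depth, so for these a difference was not detectable, and 1.15 in the deepest library. In the authors' deposited table the intron had a log2 fold change of 0.99 ± 1.58 (SE, unadjusted DESeq2 p = 0.529) with no adjusted p. Among intron intervals with an adjusted p, 3.62% were called higher in the Ssx IP. The value of msl-2 exceeded 1461 of 1844 autosomal introns of similar mean (79.2%), whose median was -0.08. It exceeded 136 of the 158 that also had a similar length (86.1%). The distance of msl-2 from the median of the 1844, 1.07, was smaller than its standard error of 1.58. Of the 1844, 37 had reads in that same library alone (2.01%).

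The overlapping intervals around this intron show how far the reads can be placed. The longer 5' UTR interval has 194 bases that the shorter lacks, 133 of them the intron, yet held only 3 reads more, all 3 in 1 library. The intron interval alone held 8. How reads that cross a border were counted is not given in the sources used here, so these reads cannot be assigned to intron or exon, and whether they come from spliced or intron-containing RNA was not tested.

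The listed CDS interval was nearly free of reads. Whether the 441 unlisted bases next to it are partly coding was not tested. This CDS interval, the longest of the 5, held 2 reads, both in 1 unnamed library, or 1.20, 0, 0 and 0 normalized reads. That is the fewest reads any listed interval has. In the authors' deposited table its log2 fold change was -0.56 ± 1.36 (SE, DESeq2 adjusted p = 0.855), and 159 other CDS intervals of 151 other genes carry exactly these statistics because they hold the same split of reads. The value therefore describes this split and not msl-2 in particular. It was also the median of the 272 autosomal CDS intervals of similar mean, 140 of which equalled it. The share of CDS intervals called higher in the Ssx IP was 0%. The largest value in this comparison, 0.07 ± 1.36 in the authors' deposited table, was likewise shared, by 61 intervals of 59 genes, among them CG34177, Cg25C and eIF-4a.

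Whole reads, unlike the fold changes, can be compared between regions without the separate scaling of each table. Per kb, msl-2 held 42.0 reads in the 3' UTR, 33.8 in the longer 5' UTR interval, 46.6 in the shorter, 60.2 in the intron and 1.03 in the CDS, over the 4 libraries of both groups together. The 3' UTR thus had 40.6 times the read density of the CDS (exact 95% interval 10.6 to 346, counting error only) and the longer 5' UTR interval 32.7 times (7.69 to 293). The UTR and intron densities lie within a factor of 2 of each other, and the CDS stands below all of them. The 5' UTR and intron intervals overlap, and their reads cannot be assigned to intron or exon, as stated above. The order of their densities is therefore not settled.

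The ratio could be formed only for genes with a listed CDS interval, so genes with fewer than 2 CDS reads, which could have higher ratios, are not in the comparison. Of 2034 other autosomal genes with a 3' UTR interval, 1379 had no listed CDS interval. The ratio was 40.6 for msl-2, against a median of 2.46 and quartiles of 0.904 and 6.04 over 640 other autosomal genes with intervals in both tables, each taken at its interval with the most reads among those with a mean of up to 12. Of these, 636 had a lower ratio and 4 a higher one. For the longer 5' UTR interval the ratio was 32.7, against a median of 2.42 over 416 genes, of which 405 were lower. The listed CDS interval of msl-2 is long, at 1933 bases against a median of 437 in the 3' UTR comparison, and a listed interval needs at least 2 reads, so a short CDS interval cannot show a low density. Among the 248 genes with a CDS interval of similar length the median ratio was 4.28, and 244 lay below msl-2. The CDS interval held 2 reads, as in msl-2, in 83 of the 248. For the 5' UTR the median was 3.98 over 137 genes with a CDS interval of similar length, of which 128 lay below msl-2 and 9 above. The rank of msl-2 is thus one among listed genes only. These ratios pool Ssx IP and control IgG IP reads and describe where msl-2 RNA was recovered, not a difference between the groups. The log2 fold change was 3.95 in the 3' UTR and -0.56 in the CDS. By these signs the 2 CDS reads, both in 1 library, lie in the other group than the bulk of the 3' UTR reads. The 3' UTR ratio of 40.6 therefore does not compare regions within a single group.

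The other subunits and targeting factors of the dosage compensation complex, 8 genes without msl-2, were examined as a list, and 7 of them were listed in at least 1 table. The genes msl-1 and msl-3 encode scaffold and chromodomain subunits, mof the histone acetyltransferase, mle an RNA helicase and roX1 and roX2 the non-coding RNAs of the complex, while Clamp and JIL-1 encode a DNA-binding targeting factor and a histone kinase. In 3' UTRs 5 of the 8 were listed, with 7 intervals, and all 7 had a positive log2 fold change, against 59.7% of all 3' UTR intervals. The median of the 7 was 1.90, against 0.23 over the table. Of these intervals, 1 was positive with an unadjusted DESeq2 p under 0.05, that of msl-3, against 4.35% of all 3' UTR intervals. By the deposited DESeq2 adjusted p, which only the interval of mof has, 0 were called. A gene with several intervals is given below at the interval with the smallest p, as for Clamp and JIL-1 with 2 each.

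The msl-3 3' UTR resembled that of msl-2 closely. It held 38 reads, split 11, 27, 0 and 0, and in the authors' deposited table its log2 fold change was 3.76 ± 1.59 (unadjusted DESeq2 p = 0.0177), with a mean of 5.38 normalized reads. It is 1 of the 13 compared intervals with reads in the same pair of libraries. The mof 3' UTR, on the X, held 59 reads, split 19, 37, 3 and 0, and the authors' deposited table gives 2.39 ± 1.28 for it (DESeq2 adjusted p = 0.129). The msl-1 3' UTR held 35 reads, split 14, 20, 1 and 0, with 2.69 ± 1.51 in the authors' deposited table. The values of msl-2 and msl-3 differ by less than their standard errors, and the ranges of ± 1 SE of all 4 genes overlap. Per kb of 3' UTR, the mean was 5.70 normalized reads in msl-2, 16.8 in msl-3, 20.6 in mof and 3.29 in msl-1. Clamp (1.91 ± 1.77) and JIL-1 (0.88 ± 1.73) had smaller values in the authors' deposited table, from 11 and 5 reads. In the authors' deposited tables for the other regions, the introns of roX2 (1.93 ± 1.605), JIL-1 (0.85 ± 1.58) and mle (0.59 ± 1.53) and the CDS of mof (1.12 ± 1.44) and msl-1 (1.06 ± 1.40) passed at no threshold used here.

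**Figure D5:**
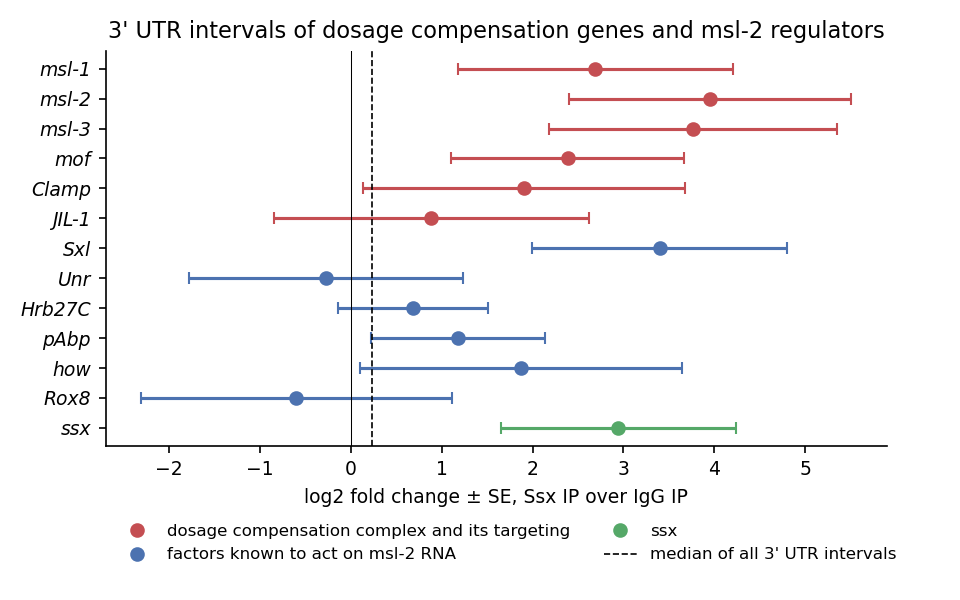
Log2 fold change ± SE of the 3' UTR interval with the smallest p for the listed dosage compensation genes, the factors known to act on msl-2 RNA, and ssx, with a dashed line at 0.23, the median of all 3' UTR intervals. The msl-2 point at 3.95 and those of the 5 other dosage compensation genes, from 0.88 to 3.76, lie right of 0, while the regulators of msl-2 lie on both sides, from -0.60 to 3.40.

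Genes whose products are known to act on msl-2 RNA were mixed. The list held Sxl, its corepressor Unr, the hnRNP protein gene Hrb27C, the poly(A)-binding protein gene pAbp, the STAR-family protein gene how and the TIA-1 homolog gene Rox8. All 6 had a 3' UTR interval, 27 in total, of which 24 were positive, against 59.7% of all 3' UTR intervals. Their median was 0.69, against 0.23 over the table. Counted as 1 interval per gene, that of smallest p, 4 of 6 were positive, with a median of 0.93. Of the 14 intervals with an adjusted p, 3 are called in the authors' deposited table, against the 33.2% of all such 3' UTR intervals given above. All 3 are overlapping intervals of the X-linked Sxl, which has 12 of the 27, and the one with the smallest p had 3.40 ± 1.40 (DESeq2 adjusted p = 0.0458). This call was lost, at 0.690, when all listed 3' UTR intervals were adjusted together. At the interval with the smallest p, Unr had -0.27 ± 1.51, Hrb27C 0.68 ± 0.82, pAbp 1.18 ± 0.95, how 1.87 ± 1.77 and Rox8 -0.60 ± 1.71 in the authors' deposited table. In 5' UTRs 5 of the 6 were listed, with 12 of 16 intervals positive and a median of 0.43 against 0.74 over that shifted table, in which 82.7% were positive. In introns 36 of 43 intervals were positive, against 62.3% of all intron intervals, and in CDS 5 of 7, against 68.3%. Of the 43 intron intervals, 23 belong to Sxl alone, so these counts do not weigh the genes equally. With 1 interval per gene, that of smallest p, 2 of 4 genes were positive in introns and 2 of 3 in CDS. In 5' UTRs this gave 5 of 5, with a median of 1.03. Outside 3' UTRs no member passed by the deposited DESeq2 statistics, adjusted or not.

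Among RNAs bound by Sxl itself, msl-2 could be set beside Sxl and the receptor gene N (Notch), while tra and nos were not among the listed genes. Each gene is again given at its interval with the smallest p, and in 3' UTRs the authors' deposited table has log2 fold changes of 3.95 ± 1.56 for msl-2, 3.40 ± 1.40 for Sxl and 2.51 ± 1.72 for N. The reads were split 21, 23, 0 and 0 in msl-2, 28, 29, 1 and 0 in Sxl, and 6, 11, 0 and 0 in N. The 3' UTR of ssx held 66 reads, split 33, 31, 2 and 0, with 2.95 ± 1.29 (DESeq2 adjusted p = 0.056) in the authors' deposited table. These 4 values lie within their standard errors of each other. Sxl, N and ssx are X-linked, whereas msl-2 is autosomal. Among X-linked 3' UTR intervals of a mean similar to that of msl-2, 92.3% were positive, with a median of 2.05. For autosomal ones these values were 53.1% and 0.11. Whether Sxl, N and ssx exceed the X-linked level was not tested. In introns the order was Sxl (2.38 ± 1.39), N (1.66 ± 1.61), msl-2 (0.99 ± 1.58) and ssx (-0.03 ± 1.59) in the authors' deposited table, and no neighbours in it differ beyond their errors.

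Genes with a pattern like that of msl-2 were sought among the 214 autosomal genes listed in all 4 tables, msl-2 included, by the Euclidean distance of their 4 Wald statistics (the fold change over its standard error), each at the interval with the smallest p. The nearest were Uev1A, a ubiquitin-conjugating enzyme variant (distance 1.17), the ribosomal protein gene RpL30 (1.67), the translational repressor gene brat (1.67), CG6700 (1.69) and crc, which encodes the ATF4 homolog (1.72). The statistics of msl-2 were 1.73 in the 5' UTR, -0.41 in the CDS, 0.63 in the intron and 2.54 in the 3' UTR. Those of Uev1A were 1.29, 0.50, 0.79 and 3.11 in the same order. All 5 genes had a positive CDS statistic, unlike msl-2, but from only 2 to 8 CDS reads each. That of msl-2 comes from 2 reads, so the difference in sign is not a settled contrast between the genes. A 3' UTR statistic at least as large as that of msl-2 was found in 2 of the other genes and a 5' UTR statistic at least as large in 12, with 0 genes in both sets. Sets this small among 214 genes would seldom share a gene, so the empty overlap does not set msl-2 apart.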

How the data were processed

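Per the submitters' processing notes, cutadapt 1.6, Bowtie 0.12.7, DESeq2 1.14.1 and DESeq were used and the builds named are BDGP6 and dm6. How reads were counted, deduplicated and assigned to strands and features is not given in the sources used here. Per the file headers, the deposited mean is a signal per interval, the mean of normalized read counts over 4 libraries. The authors' fold changes and their standard errors are on the log2 scale, per the file headers. The deposited test statistic is a score equal to the fold change over its standard error, and the deposited p-value is its two-sided normal p, both checked on every row.

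The members and lists were chosen with earlier results of these data known. A comparison interval lies on 2L, 2R, 3L, 3R or 4, in the same table, with a mean within a factor of 1.5 of that of msl-2. Ranks are descriptions, because intervals share the same 4 libraries. Deposited counts of named libraries were not used here, and the planned count test was replaced by the authors' statistics. Each deposited mean averages whole reads divided by size factors, and up to a mean of 12 the steps gave 1 solution for 100% of intervals in each table (relative tolerance 1e-11). The solved libraries carry no names and are numbered by falling size factor within a table, so numbers do not match between tables. The solving step and the adjustment recovered known answers on simulated data. Named genes are msl-2, all listed members of the lists, the 3 largest values in each comparison and the 5 genes nearest in pattern. Python 3.11.15, pandas 2.3.3 and scipy 1.17.1 were used.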

Additional observations from a re-analysis of the deposited data

How the results depend on the processing

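Of the 5 ranks of msl-2, each recomputed under 9 alternatives, that of the 3' UTR stayed between 94.2% and 100% of compared intervals below it, at 100% in a narrower mean window and for the 100 nearest means, 94.2% against X-linked intervals and 97.5% against all chromosomes. That of the shorter 5' UTR interval was 69.8% against X-linked intervals, and that of the longer stayed between 72.7% and 85.1%. The intron's rank was 73.5% in the narrower window, 82.9% within a factor of 2, 75% for the 100 nearest means, 86.1% with a similar length and 81.1% by the Wald statistic. The CDS rank, set by tied 2-read intervals, was 0% in the narrower window and for the 100 nearest means, 8.10% within a factor of 2 and 8.33% against X-linked intervals. Beyond these comparison sets, the cause was not tested. A comparison by whole reads, chosen after seeing the data, gave 99.3% for the 3' UTR. The p of the 3' UTR was 0.776 adjusted over the 4 tables and 0.987 over autosomal intervals, and none of the 11 alternative adjustments brought an msl-2 interval under 0.05. No paired analysis was possible because the tables hold no values of named libraries, and leaving out libraries could not be done for the same reason. The search for runs of T was not run, since no genome was used here. Depth limits the intron, the CDS and in part the 5' UTR, where 0 reads in a library of low depth allow as much as was seen elsewhere.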

Other observations

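Among 11 cofactors of Sxl in splicing, such as snf, a shared U1 and U2 snRNP protein, and the splicing factor subunits U2af50 and U2af38, 8 were listed in at least 1 table. None passed by the deposited DESeq2 statistics, adjusted or not, in any region. The 5' UTRs had the largest values in the authors' deposited table, those of snf (2.93 ± 1.89, 13 reads) and U2af50 (2.50 ± 1.93, 10 reads), both X-linked, and their reads, 3 and 10 in snf and 3 and 7 in U2af50, lay in the same pair of unnamed libraries as those of the msl-2 5' UTR. Such a split was common on the X, in 63 of 86 5' UTR intervals with a mean similar to the shorter msl-2 interval (73.3%). Of these 86, 98.8% were positive, with a median of 2.55, so neither gene stands out. In introns all 8 intervals of the 4 listed cofactors were positive, against 62.3% of all intron intervals. Their median was 0.91, against 0.18 over the table. With 1 interval per gene, that of smallest p, all 4 were positive with a median of 0.42. In 3' UTRs 3 of 4 intervals were positive, against 59.7% of all 3' UTR intervals, with a median of 0.23 that equals the one of the table.

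The CDS of pps, another cofactor, is among the intervals that share the 2-read split and so the statistics of the msl-2 CDS.

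Of 7 genes known to be expressed in haemocytes, the cell type that SL2 cells resemble, 4 were listed (srp, Pxn, Col4a1, named Cg25C in the tables, and vkg) and Hml, He and NimC1 were not. Of 4 markers of other cell types, elav and Mhc were listed, from 37 reads or fewer in any region. These tables hold RNA recovered by immunoprecipitation, so the listing gives no expression level.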
